A study of Homo sapiens with 6 samples.

Results

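The carboxylesterase genes CES2, CES3 and CES4A lie side by side on the long arm of human chromosome 16. They were taken by gene symbol from the authors' deposited table of genes that differed between mitoxantrone and DMSO, of which they are 3 of 1305 rows. All libraries came from NCI-H292, an established human lung cancer cell line. There were 3 libraries from cells given 50 nM mitoxantrone for 48 hours, labelled M1 to M3 and called mitoxantrone replicates 1 to 3 here, and 3 from cells given DMSO, the drug's solvent, at a dilution of 1 in 1000 for the same 48 hours. Mitoxantrone traps type II topoisomerase on DNA and so breaks DNA, and the series title names senescence, a lasting stop of cell division, and therapy against LUNX as the subject. Libraries were made from total RNA by poly(A) selection or ribosomal depletion, as the labels put it without choosing, and sequenced as read pairs, and no genetic change was labelled in either group.

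Carboxylesterases are serine hydrolases that split esters, amides and carbamates, mostly in the lumen of the endoplasmic reticulum. CES2, the form best known from the intestine, converts the prodrug irinotecan into its active product, which poisons type I topoisomerase, and it also takes part in the activation of other ester and carbamate prodrugs. CES3 has weaker activity towards the same kind of substrate, and CES4A is a little studied relative. The family also includes CES1, the main liver form, and CES5A, which lie elsewhere on chromosome 16.

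The catalytic serine is the residue all these enzymes need, and the coding bases around it show how close the 3 genes are. The bases are from the GENCODE release 29 transcripts ENST00000317091, ENST00000303334 and ENST00000540947 (GRCh38, plus strand), and capitals mark the serine codon.
CES2: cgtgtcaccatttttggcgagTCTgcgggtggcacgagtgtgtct
CES3: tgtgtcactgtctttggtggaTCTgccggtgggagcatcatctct
CES4A: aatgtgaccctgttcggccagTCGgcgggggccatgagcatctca
These 45 bases lie at chr16:66940540-66940584 in CES2, chr16:66964460-66964504 in CES3 and chr16:67001411-67001455 in CES4A, in exon 5 of each transcript. The site was found as an in-frame match to codons for glycine, any residue, serine, alanine and glycine in that order, which occurred once in each coding sequence. CES2 and CES3 shared 30 of the 45 bases, CES2 and CES4A 30, and CES3 and CES4A 25. Over their whole coding sequences the aligned bases were 64.0% identical between CES2 and CES3, 63.3% between CES2 and CES4A and 62.1% between CES3 and CES4A. The longest run shared without a mismatch by any annotated transcripts of 2 of the 5 family members was 26 bases, between CES1 and CES2, while reads were 150 bases long. Between CES2 and CES3 the longest such run was 20 bases, between CES2 and CES4A 18 and between CES3 and CES4A 13.

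Stretches before the starts of CES2 and CES4A are shown because the 3 neighbouring genes moved in the same direction. They are from RefSeq on GRCh38.p14, plus strand. The promoter table matched 2 of the 3 members, CES2 and CES4A, with 2 windows each. Only the first window of each gene was used for the printed bases and the motif search, and the other was not analysed here. CES2 begins close to CIAO2B, which is read from the other strand, and the 68 bases that separate the start sites are chr16:66934403-66934470. For CES4A the 250 bases before the start are chr16:66988339-66988588. Capitals mark a match to the core of ETS factor sites in CES2, and matches to the AP-1 motif and the GC box in CES4A.
CES2: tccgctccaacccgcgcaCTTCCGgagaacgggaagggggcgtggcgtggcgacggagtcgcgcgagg
CES4A: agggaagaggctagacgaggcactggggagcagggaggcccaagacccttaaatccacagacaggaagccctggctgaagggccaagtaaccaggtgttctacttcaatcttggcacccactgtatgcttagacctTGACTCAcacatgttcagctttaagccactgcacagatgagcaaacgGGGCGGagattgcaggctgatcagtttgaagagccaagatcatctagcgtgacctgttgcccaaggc
The motifs searched on both strands, in windows from 250 bases before to 50 after a start, were the GC box (GGGCGG), the CCAAT box (spelled CCAAT), the TATA box (TATAAA), the E box (CACGTG), the AP-1 motif (TGANTCA), the ETS core (CTTCCG) and the p53 response element decamer. No match overlapped another. The CES2 window held the ETS core from positions -70 and -50, of which the first begins before the printed stretch; 19.5% of 35116 promoter windows held it. The CES4A window held the AP-1 motif from position -114 (7.7% of windows), and the GC box from positions -67 and 44 (45.0%). Neither window held the CCAAT box (34.6%), the TATA box (11.5%), the E box (7.3%) or the p53 decamer (6.6%), which says only that these letters were absent from these windows.

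All 3 carboxylesterases were higher with mitoxantrone. CES2 rose 2.25-fold and CES3 2.42-fold; the fitted rise of CES4A was 2.95-fold, on few reads. All 3 passed an adjusted p of 0.05 as higher in the edgeR quasi-likelihood test, where 56.7% of the listed genes passed as higher, 35.3% as lower and 92% in either direction. The table holds genes the authors had already selected on the same contrast, so these calls repeat that selection and are no separate support for it. The groups did not overlap for any of the 3, which was also the case, in the higher direction, for 60.1% of listed genes and in either direction for 98.6%.

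CES2 had 1567.3 normalized reads in DMSO replicate 1, 1406.5 in replicate 2 and 1809.5 in replicate 3, against 3365.1, 3722.0 and 3667.6 in mitoxantrone replicates 1, 2 and 3. The highest DMSO library was thus far below the lowest mitoxantrone library. The means were 1594 ± 203 (SD, n = 3) and 3585 ± 192 (SD, n = 3). The log2 fold change was 1.17 (standard error 0.14), and its Benjamini-Hochberg adjusted p was 2.2e-05 by edgeR. The authors' deposited table gave 1.145 with a standard error of 0.112. CES2 occupies 66968347 to 66978999 on chromosome 16, plus strand, in the coordinates of the table (ENSG00000172831).

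CES3 (ENSG00000172828, 66995140 to 67009051) was a rarer transcript and was also higher in every mitoxantrone library. Its normalized reads were 55.0, 34.0 and 48.0 in DMSO replicates 1 to 3 and 101.8, 109.4 and 123.4 in mitoxantrone replicates 1 to 3. DMSO replicate 2 was lowest for both CES2 and CES3. Means were 45.7 ± 10.7 (SD, n = 3) and 111.5 ± 11.0 (SD, n = 3), and the log2 fold change was 1.28 (standard error 0.22, edgeR adjusted p 0.00066). The authors' deposited table gave 1.179 with a standard error of 0.215.

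CES4A (ENSG00000172824, 67022492 to 67043661) was close to the lower limit of what these libraries can measure. It had 5, 8 and 8 raw reads in DMSO replicates 1 to 3 and 13, 18 and 22 in mitoxantrone replicates 1 to 3. Here DMSO replicate 2 was the highest of its group after scaling, at 8.24 normalized reads, still under the 14.7 of mitoxantrone replicate 1. Means were 6.46 ± 2.00 (SD, n = 3) and 19.0 ± 4.46 (SD, n = 3) normalized reads. Pooling each group gave 21 against 53 reads, a ratio of 3.002 with a 95% exact interval of 1.78 to 5.24 that covers counting error only.

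The fitted log2 fold change of CES4A was 1.56 (standard error 0.43), with edgeR giving an adjusted p of 0.037. The authors' deposited table gave a smaller change, 1.10 with a standard error of 0.37 and an adjusted p of 0.013. The call was lost without DMSO replicate 1 or 3 or mitoxantrone replicate 2 or 3, at adjusted p-values of 0.19, 0.10, 0.11 and 0.22 by edgeR. It was also lost with the DESeq2 Wald test, at 0.10, and with limma on log2(FPKM + 1), at 0.34. CES2 and CES3 kept their calls without any single library.

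**Figure D1:**
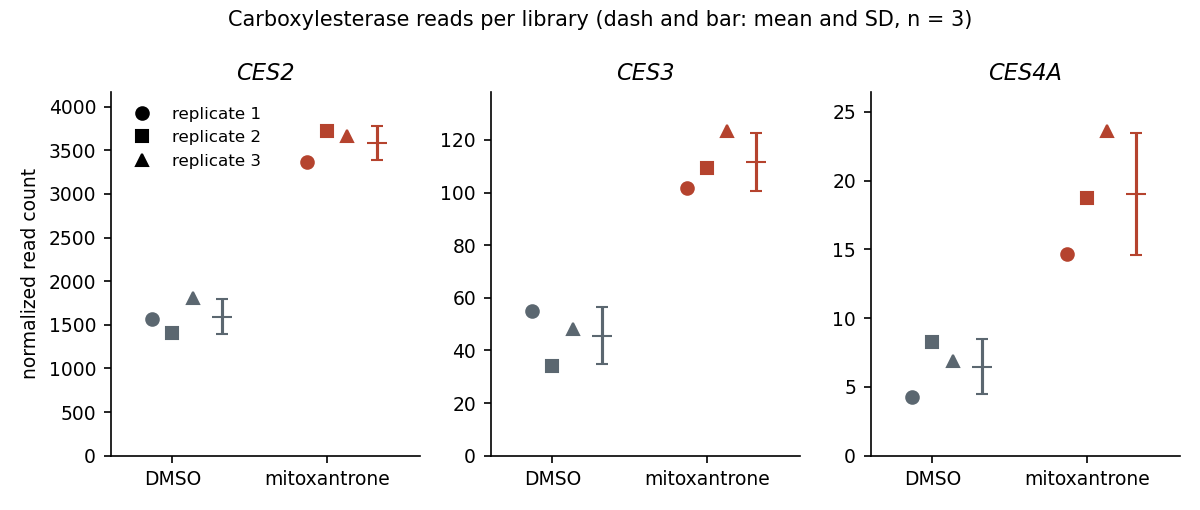
Normalized read counts (y axis, from 0, with its own range for each gene) of CES2, CES3 and CES4A in each library, with replicate numbers as symbols and the mean and SD beside them. In each panel the 3 mitoxantrone libraries lie above the 3 DMSO libraries; the CES4A panel runs from 4.30 to 23.6 normalized reads.

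The size of these changes depends on how the libraries were scaled. The values above use the size factors of the authors, solved from their mean normalized counts; on which genes the authors set them is not given in the sources used here. Factors recomputed over the listed genes alone shift the median log2 fold change of the listed genes by -0.69 (TMM) or -0.99 (DESeq2 factors). With them CES2 had a log2 fold change of 0.48 or 0.18, CES3 0.59 or 0.29 and CES4A 0.88 or 0.58, all still above 0 and none past the threshold (adjusted p 0.064 to 1, edgeR quasi-likelihood test). The same factors changed the calls over the table from 740 higher and 461 lower to 366 and 512 (TMM) or 219 and 512 (DESeq2 factors). They were set on genes all selected as changed, 793 given as higher and 512 as lower by the authors. With library totals recovered from the FPKM values instead, the log2 fold change was 1.10 for CES2, 1.20 for CES3 and 1.49 for CES4A. All passed (adjusted p 2.9e-05, 0.0014 and 0.049, edgeR quasi-likelihood test). The calls over the table were then 723 higher and 482 lower. Relative to the median of all listed genes, CES2 lay at -0.09, CES3 at 0.02 and CES4A at 0.30 on the log2 scale with the authors' factors, and at -0.09, 0.02 and 0.31 with TMM. Other factors shift all genes by nearly the same amount, so these positions could hardly differ between scalings. That median is also taken over genes selected as changed in either direction. With limma on log2(FPKM + 1) the members lay at 0.74, 0.255 and -0.12 in the same order.

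Levels per length differed far more between the 3 genes than between treatments. CES2 had 19.4, 16.2 and 22.2 FPKM (fragments scaled by gene length and library size) with DMSO and 37.7, 42.7 and 43.1 with mitoxantrone. CES3 had 0.74, 0.42 and 0.64 FPKM with DMSO and 1.24, 1.36 and 1.57 with mitoxantrone. CES4A had 0.07, 0.12 and 0.10 FPKM with DMSO and 0.20, 0.26 and 0.34 with mitoxantrone. The order CES2, CES3, CES4A held in all 6 libraries, with no overlap between neighbours in that order.

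CES2 supplied nearly all of the summed FPKM of the cluster in both groups, 96.5% ± 0.45 (SD, n = 3) in DMSO libraries and 96.1% ± 0.33 (SD, n = 3) in mitoxantrone libraries. CES3 supplied 2.99% ± 0.60 (SD, n = 3) and 3.24% ± 0.22 (SD, n = 3), and CES4A 0.50% ± 0.19 (SD, n = 3) and 0.62% ± 0.12 (SD, n = 3). The shares of the groups overlapped for each gene, while the summed FPKM rose from 19.95 ± 3.11 (SD, n = 3) to 42.8 ± 3.19 (SD, n = 3). In bulk RNA, more cells with the transcript and more transcript per cell cannot be told apart.

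**Figure D2:**
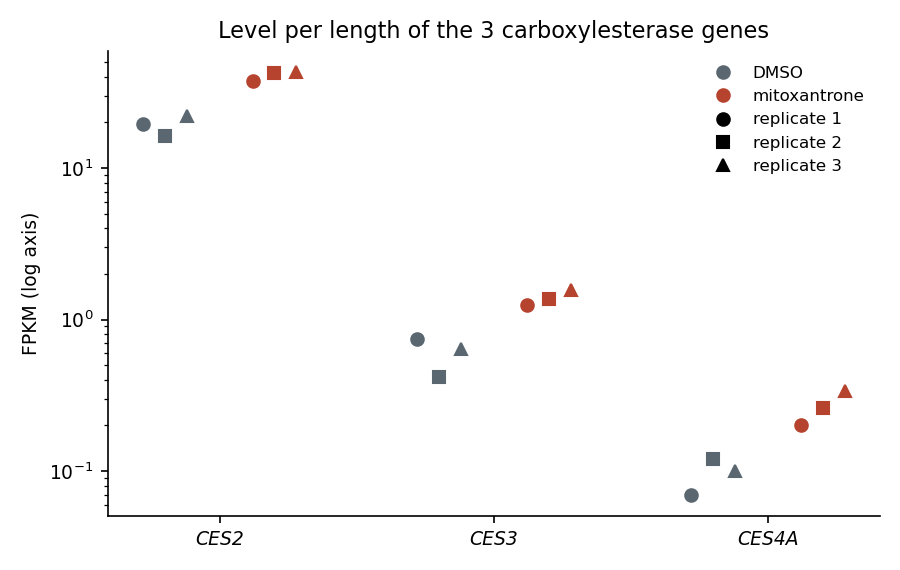
FPKM (y axis, log scale) of the 3 carboxylesterase genes in each library, DMSO in grey and mitoxantrone in red, replicate numbers as symbols. CES2 lies between 16.2 and 43.1, CES3 between 0.42 and 1.57 and CES4A between 0.07 and 0.34, so the 3 genes form separate bands.

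Whether the members changed by different factors was tested on the log2 ratio of their normalized reads (each plus 1) within each library. The ratio of CES3 to CES2 was -4.81, -5.33 and -5.21 with DMSO and -5.03, -5.08 and -4.88 with mitoxantrone, a difference of 0.12 with a standard error of 0.17. The groups overlapped. For CES4A against CES2 the difference was 0.26 with a standard error of 0.32, and for CES4A against CES3 it was 0.14 with a standard error of 0.44. The exact two-sided permutation p-values were 0.5, 0.4 and 0.8, or 0.75, 0.75 and 0.8 after Benjamini-Hochberg adjustment over the 3 pairs, where 3 against 3 libraries cannot give less than 0.1. These p-values do not show that the genes changed by the same factor, and the sign for CES4A turned when the ratio was taken of FPKM plus 0.1 (-0.21 against CES2, -0.22 against CES3). That added constant is close to the FPKM of CES4A itself in the DMSO libraries, 0.07 to 0.12. In FPKM with nothing added, the ratio of CES2 to CES4A was 211 ± 71.7 (SD, n = 3) in DMSO libraries and 159.9 ± 31.1 (SD, n = 3) in mitoxantrone libraries. That of CES3 to CES4A was 6.82 ± 3.56 (SD, n = 3) and 5.35 ± 0.80 (SD, n = 3). The groups overlapped for both ratios. FPKM are the same reads divided by gene length and library total, so these ratios are no separate measure from those of the reads.

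By size of change the carboxylesterases stood in the lower part of the genes given as higher. The smallest absolute log2 fold change in the authors' deposited table was 1.00, and the largest adjusted p was 0.043. Of the 793 genes given as higher there, 196 had a smaller log2 fold change than CES2, 231 a smaller one than CES3 and 124 a smaller one than CES4A. The median log2 fold change of the 793 was 1.33 in that table. There CES4A had the smallest change of the members, 1.10, while in the edgeR fit it had the largest, 1.56. For other named genes with few reads the deposited change was also smaller in size than the fitted one, as for ACHE (1.057 against 1.695) and NOTUM (-1.475 against -4.301). In the edgeR fit the median of the higher genes was 1.742, above each member. CES2 combined a modest factor with a high level: its mean of 2590 normalized reads compares with a median of 64.2 over the listed genes, CES3 was near that median at 78.6, and CES4A was below it at 12.7.

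**Figure D3:**
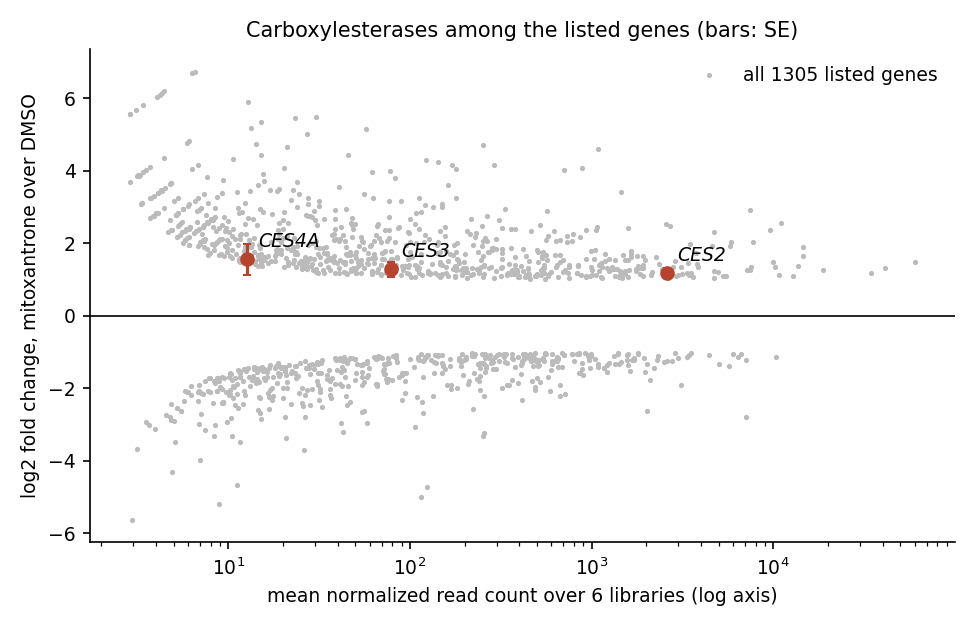
Log2 fold change, mitoxantrone over DMSO (y axis), against the mean normalized read count over 6 libraries (x axis, log scale) for all listed genes in grey, with CES2, CES3 and CES4A in red and their standard errors as bars. The empty band around 0 reflects the authors' fold threshold, and the 3 members, at 1.17 to 1.56, sit near its upper border.

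The cluster spans 75.3 kb in the table's coordinates, with 16.1 kb between CES2 and CES3 and 13.4 kb between CES3 and CES4A, and all 3 genes are on the plus strand. The build of these coordinates is not given in the sources used here; each start lies 33903 bases above its GENCODE release 29 start on GRCh38. In that annotation CES2, CES3 and CES4A follow each other with no other protein-coding gene between them. A non-coding transcript on the same strand, AC009084.1 (chr16:66942712-66963256 on GRCh38), overlaps the end of CES2 and the start of CES3. Non-coding loci on the other strand overlap the end of CES2 (AC009084.3) and the end of CES4A (AC009084.2). AC009084.1 shares the strand of CES2 and CES3, so strand could not separate reads of its overlaps. For AC009084.3 and AC009084.2 the labels do not say whether the libraries kept the strand, so reads of those overlaps cannot be told apart either. None of these 3 loci was in the table, and they were not analysed here.

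The listed genes next to the cluster on its CES2 side were also higher. RRAD, which encodes a small GTPase of the RGK group and lies 8.8 kb before CES2, had 63.6, 104.1 and 87.4 normalized reads with DMSO and 569.9, 513.7 and 513.1 with mitoxantrone. Its log2 fold change of 2.65 (standard error 0.18, adjusted p 5.7e-08, edgeR quasi-likelihood test) was larger than those of the carboxylesterases; that difference was not tested. CDH16, a kidney cadherin gene 15.5 kb before CES2, had 0 reads in every DMSO library and 7, 5 and 12 with mitoxantrone. With the DMSO group set to a floor of 3 reads, its observed reads gave a 9.52-fold rise. The exact 95% lower limit for counting error was less, 7.16-fold (adjusted p of the rise 0.0037, edgeR quasi-likelihood test). CIAO2B, which lies between RRAD and CES2, and CBFB, the next protein-coding gene after CES4A, were not in the table and were not analysed here.

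Farther out, directions were mixed. The next listed gene on the CES2 side was CDH5, the cadherin of endothelial junctions, 529.7 kb away, which fell 2.13-fold, from a mean of 444.5 ± 66.2 (SD, n = 3) normalized reads to one of 208 ± 21.1 (SD, n = 3). On the CES4A side, TPPP3, a tubulin-binding protein gene 380.1 kb away, had 5.16, 17.5 and 16.3 normalized reads with DMSO and 0, 2.08 and 6.44 with mitoxantrone, and missed the threshold (edgeR adjusted p 0.15). It passed as lower with factors set on the listed genes alone (edgeR adjusted p 0.025 with TMM, 0.011 with DESeq2 factors) and with p-values adjusted over the listed genes only (0.011). SLC12A4, a potassium-chloride cotransporter gene 933.7 kb away, rose 2.09-fold, a call lost with factors set on the listed genes alone (log2 fold change 0.37 with TMM, 0.07 with DESeq2 factors). CALB2, the calretinin gene, was 4349 kb away and fell 4.78-fold. Of 75 genes put on a list for this region, 6 were in the table; 4 passed as higher (CDH11, CDH16, RRAD and SLC12A4) and CDH5 as lower. On all of chromosome 16, 50 genes were listed, of which 26 passed as higher and 19 as lower, against 740 and 461 of 1305 over the table.

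**Figure D4:**
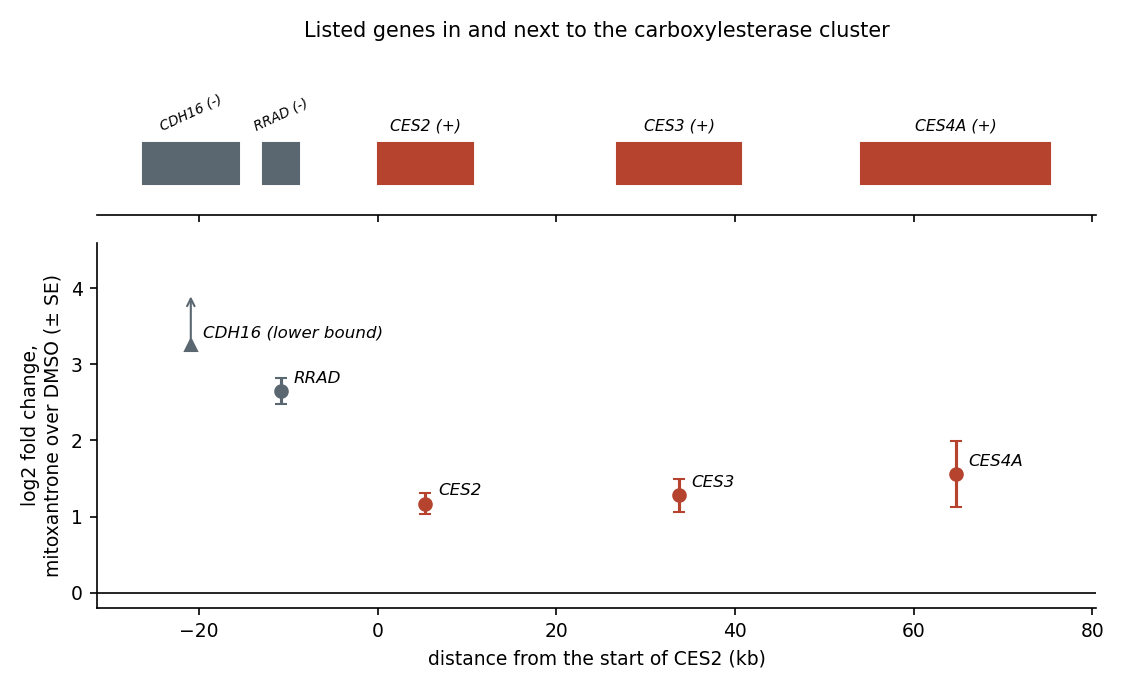
Positions of the 5 listed genes from CDH16 to CES4A as distance from the start of CES2 in kb (top, boxes with strand) and their log2 fold changes with standard errors (bottom). CDH16, with 0 DMSO reads, is drawn at 3.25 and marked as a lower bound. That value sets the DMSO group to a floor of 3 reads and leaves out the counting error of the mitoxantrone reads. All 5 lie above 0, with RRAD at 2.65 above the 3 carboxylesterases.

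Runs of neighbouring genes were counted over the whole table. In the GENCODE order of 19969 protein-coding genes, 10 runs of at least 3 consecutive genes were all in the table, and CES2, CES3 and CES4A form 1 of them. In 8 of the 10 runs every gene moved in the same direction, in 7 of them upwards. By the authors' values, 793 of all 1305 listed genes were higher and 512 lower, and all were selected as changed. Whether 8 of 10 is more than this split alone would give was not tested. The other runs include AKR1C1, AKR1C2 and AKR1C3, aldo-keto reductases whose run was lower throughout, and EPGN, EREG and AREG, growth factor genes whose run was higher throughout. The annotation held 1267 of the 1305 listed gene identifiers, and the count uses the 1048 of them that are protein-coding there.

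Other hydrolases and drug-handling genes show what surrounded the carboxylesterases in the same cells. Of 31 other esterases and serine hydrolases on the list, 4 were in the table, with 2 passing as higher and 1 as lower. AADAC, an arylacetamide deacetylase that also hydrolyses drugs, had 8.59, 12.4 and 5.14 normalized reads with DMSO and 36.2, 26.1 and 28.98 with mitoxantrone, a 3.52-fold rise. CMBL, a cytosolic hydrolase that activates ester prodrugs, rose 2.18-fold. Its normalized reads averaged 1648 ± 57.2 (SD, n = 3) in DMSO libraries and 3599.7 ± 64.8 (SD, n = 3) in mitoxantrone libraries. This read count and this factor were close to those of CES2. Per length CMBL stood higher, with mean FPKM of 31.94 (DMSO) and 66.41 (mitoxantrone) against 19.25 and 41.18 for CES2. ACHE, acetylcholinesterase, had 14 reads over the DMSO group and 39 over the mitoxantrone group (adjusted p 0.067, edgeR quasi-likelihood test). NOTUM, a secreted carboxylesterase that removes the lipid from Wnt proteins, fell from 31 reads over the DMSO group to 1, a 26.1-fold lower normalized level with a 95% exact counting interval of 4.34 to 1062.

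Of 27 genes for handling irinotecan and capecitabine, drugs that need carboxylesterases for activation, ABCC2 and CYP3A5 were in the table and both rose. ABCC2, an efflux pump for drug conjugates, had a mean of 42.2 ± 8.93 (SD, n = 3) normalized reads in DMSO libraries and 126.9 ± 10.2 (SD, n = 3) in mitoxantrone libraries. CYP3A5, an oxidase that inactivates irinotecan, went from 18.6 ± 2.78 (SD, n = 3) to 56.3 ± 8.24 (SD, n = 3). Both genes passed as higher with the authors' factors. With TMM factors set on the listed genes alone, CYP3A5 missed the threshold (edgeR adjusted p 0.089) and ABCC2 passed (0.015). With DESeq2 factors set on them both missed it (edgeR adjusted p 0.27 for ABCC2, 0.86 for CYP3A5). The other 25 genes of that list were not analysed here.

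Enzymes of general drug metabolism moved in both directions: of 52 on the list 13 were in the table, 5 passed as higher and 8 as lower, with a median log2 fold change of -1.32 against 1.26 over all listed genes. The largest rises were AOX1, aldehyde oxidase (5.48-fold), CYP2J2, an arachidonic acid epoxygenase (3.69-fold), and XDH, xanthine dehydrogenase (3.42-fold). With DESeq2 factors set on the listed genes alone CYP2J2 lost its call (edgeR adjusted p 0.26), while AOX1 and XDH kept theirs. The largest falls were AKR1C2 (10.04-fold lower), CYP1A1, an oxidase of aromatic hydrocarbons (7.85-fold lower), and AKR1C1 (6.41-fold lower). The AKR1C genes are close in sequence, so the division of reads between them is uncertain.

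**Figure D5:**
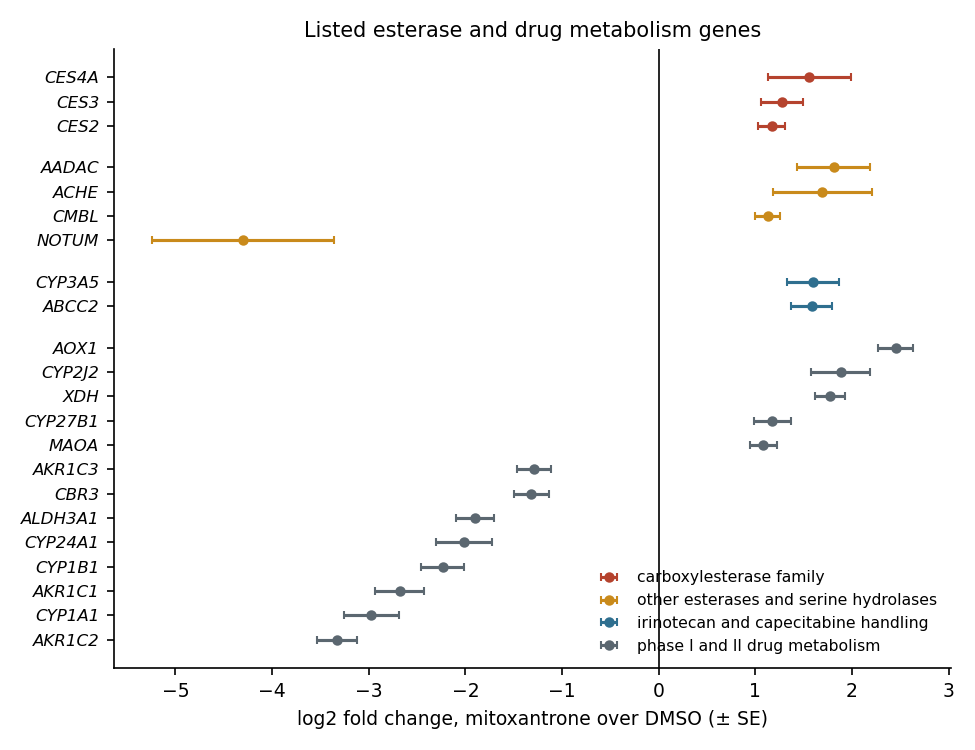
Log2 fold changes with standard errors (x axis) of the listed carboxylesterases, other esterases and serine hydrolases, irinotecan and capecitabine genes and drug metabolism genes, coloured by list. The carboxylesterases lie between 1.17 and 1.56, while the drug metabolism genes spread from -3.33 to 2.45; NOTUM rests on 1 read in the mitoxantrone group.

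Genes whose profile was most like that of each member were sought among the 601 listed protein-coding genes whose level reached the median of the table, as the root mean square difference of log2(normalized reads + 1) over the 6 libraries, relative to the DMSO mean. Nearest to CES2 was INPP5D, which encodes the lipid phosphatase SHIP1, at 0.019, with 2052, 1775 and 2314 normalized reads with DMSO and 4326, 4799 and 4796 with mitoxantrone. DGKA, a diacylglycerol kinase gene, followed at 0.060 and XPC, a DNA damage sensor of nucleotide excision repair, at 0.068. CES3 was nearest to DOCK4 (0.068), GRAMD1B (0.074) and DSG3 (0.10). For CES4A the nearest were SH2D5 at 0.22, CDIP1 at 0.24 and ALOX5 at 0.24, a distance that includes the counting noise of its 5 to 22 reads per library. Between the members, which were not picked for likeness, the distance was 0.19 for CES2 and CES3, 0.37 for CES2 and CES4A and 0.45 for CES3 and CES4A.

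The libraries held 14762544 to 17817782 assigned reads, and the share that fell in the listed genes was 3.97% to 4.04% in DMSO libraries and 6.08% to 6.20% in mitoxantrone libraries. Of 14 lung epithelial markers, KRT8 and KRT18, the keratins of simple epithelia, were in the table and rose, from a sum of 46888.8 to 63694.7 normalized reads in the DMSO libraries to 122465.4 to 152988.4 in the mitoxantrone libraries. Of 12 markers of other cell types, CD14 and COL1A1 were in the table and fell, from a sum of 351.4 to 461.8 to one of 145.9 to 182.5. The part of these shifts in the carboxylesterase values was not tested, and the other markers were not analysed here. Whether the libraries were separate cultures is not labelled, and the spread between them, on which all p-values rest, may be technical.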

How the data were processed

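The deposited table holds RNA-seq results of 3 DMSO and 3 mitoxantrone libraries for genes the authors selected as changed. Read counts per gene were whole numbers as the authors deposited them. The authors' FPKM values, also deposited, came from those counts, gene lengths and library totals: the formula returned all of them within 0.006 or 0.02 percent. Per the file headers, the authors' remaining columns compare mitoxantrone with DMSO: a log2 fold change, its error, a Wald score, p-values raw and adjusted, and as a signal the mean normalized count over all libraries. HISAT2 (2.0.1), HTSeq (0.6.1), cutadapt (1.9.1), DESeq2 and Cufflinks (2.2.1) appear in the submitters' processing notes, without their roles. For strand and build, the sources used here give nothing.

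The authors' size factors were solved from their mean normalized counts and used in edgeR 4.0.16 (R 4.3.3), with the quasi-likelihood test on all 1305 genes. The spread between libraries was thus estimated only on genes selected as changed, and the effect of this on the p-values was not tested. The Benjamini-Hochberg adjustment took 18313 tests, the number at which the authors' p-values and adjusted p-values give whole ranks (within 0.02) for 86.8% of those usable, and counted the unlisted genes as not called. Pairs of members were compared by exact permutation (Python 3.11.15). Alternatives used limma 3.58.1 and DESeq2 1.42.0, other scalings and filters, a replicate block and each library left out. The edgeR step was tested on simulated data in which 200 of the 1305 genes were changed, with adjustment over those 1305. The table differs, since all its genes were selected as changed and 18313 tests were counted, so the simulation checks only that the step runs correctly. Counting intervals are exact at 95% (scipy 1.17.1), and a count of 0 was set to a floor of 3 reads over the group. Both cover counting error only.

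The named genes are the members, the listed genes of each list (the 3 largest rises and falls where more than 10 are listed), the 3 nearest listed genes on each side and the 3 most alike in profile. Members and lists were chosen with earlier results of these data known.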

Additional observations from a re-analysis of the deposited data

How the results depend on the processing

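With TMM factors over the listed genes, the log2 fold change was 0.48 for CES2 (edgeR adjusted p 0.064), 0.59 for CES3 (0.27) and 0.88 for CES4A (0.89), and 366 genes passed as higher in place of 740. With DESeq2 size factors over those genes the values were 0.18, 0.29 and 0.58 (adjusted p 1 for each), and 219 genes passed as higher; 512 passed as lower in both cases in place of 461. The share of higher calls was 61.62% with the authors' factors, 41.69% with TMM and 29.96% with the DESeq2 factors. With library totals recovered from FPKM it was 60.0%, and CES2, CES3 and CES4A kept their calls (edgeR quasi-likelihood test). CES4A also missed the threshold with the DESeq2 Wald test (1.57, adjusted p 0.10) and with limma on log2(FPKM + 1) (0.21, adjusted p 0.34). Replicate numbers did not pair the libraries: deviations of same-numbered libraries correlated at -0.41, -0.25 and 0.23. With the replicate block CES4A had 1.55 (adjusted p 0.061), and 736 genes passed as higher and 463 as lower. Leaving out 1 library at a time gave 1.09 to 1.27 for CES2, 1.11 to 1.43 for CES3, 1.33 to 1.75 for CES4A, 622 to 715 higher and 395 to 463 lower calls. The difference of CES4A from CES2 turned to -0.21 with FPKM plus 0.1 (exact permutation p 0.5), and that from CES3 to -0.22 (exact permutation p 0.7). Without DMSO replicate 1 the latter was -0.23 (exact permutation p 0.6), and it ranged to 0.51. The causes were not tested. None of the 32 other named genes turned direction in any fit; with TMM 9 lost their call, and with the DESeq2 factors 17. TPPP3 passed as lower with the replicate block (edgeR adjusted p 0.033). CD14 lost its call without DMSO replicate 3 or mitoxantrone replicate 3. The few reads of CES4A and CDH16 limit their values.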
